A study of Homo sapiens with 36 samples.

Results

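CEACAM1, CEACAM5, CEACAM6 and CEACAM7 are 4 adhesion molecules of the carcinoembryonic antigen (CEA) family, and they were followed here in A549 cells through long exposure to IL-1β and after its withdrawal. The 4 genes were chosen by their symbols from the 63677 genes listed, with their differences between IL-1β and control already known, so these differences are given as a description and without a test. A549 is an established line of non-small cell lung cancer, and all libraries came from this 1 line. The treated cells were grown in RPMI with 10% FBS and IL-1β at 1 ng/ml and were sampled on days 6, 15 and 21 of the exposure and again 6, 15 and 30 days after IL-1β had been removed. Untreated cells of the same line in the same medium were collected beside them at each of the 6 time points. The cultures were split every 3-4 days, and each of the 12 groups held 3 libraries, labelled as biological replicates and called A, B and C here. The labels do not say whether the replicates were kept as separate cultures from the start, so the standard errors and p-values measure the spread between these libraries.

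CEACAMs are members of the immunoglobulin superfamily that bind one another across and along cell surfaces. CEACAM5 (the CEA measured as a serum tumour marker), CEACAM6 and CEACAM7 are held in the membrane by a glycosylphosphatidylinositol (GPI) anchor, whereas CEACAM1 spans the membrane and, in its long form, carries inhibitory tyrosine motifs that recruit the phosphatases SHP-1 and SHP-2. CEACAM5 and CEACAM6 are often abundant in carcinomas, including those of the lung, and are known for hindering anoikis, the death of cells that lose their attachment.

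All 4 genes lie on chromosome 19. In GRCh37, the build of the counts, CEACAM7 spans 42177231 to 42210895 on the minus strand, CEACAM5 spans 42212504 to 42234353 and CEACAM6 spans 42254885 to 42276116, both on the plus strand, and CEACAM1 lies farther along at 43011456 to 43065386 on the minus strand. Their upstream sequences are shown because the promoters are close relatives while the transcript levels were far apart. The 250 bases before each RefSeq start (GRCh38.p14; CEACAM6 chr19:41755280-41755529 and CEACAM5 chr19:41708376-41708625, plus strand; CEACAM7 chr19:41688271-41688520 and CEACAM1 chr19:42528482-42528731, minus strand) are given 5′ to 3′, with capitals on the 6 bases that align with the CACGTG of CEACAM6.
CEACAM6: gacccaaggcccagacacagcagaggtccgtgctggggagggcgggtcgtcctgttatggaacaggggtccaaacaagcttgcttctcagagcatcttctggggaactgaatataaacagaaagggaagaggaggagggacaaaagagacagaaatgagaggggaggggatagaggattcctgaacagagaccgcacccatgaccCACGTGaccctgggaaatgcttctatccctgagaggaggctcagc
CEACAM5: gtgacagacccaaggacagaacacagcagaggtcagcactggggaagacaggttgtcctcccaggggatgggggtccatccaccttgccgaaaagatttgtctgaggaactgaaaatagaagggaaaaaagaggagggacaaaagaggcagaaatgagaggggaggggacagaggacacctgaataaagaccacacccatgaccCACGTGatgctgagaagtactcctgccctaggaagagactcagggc
CEACAM7: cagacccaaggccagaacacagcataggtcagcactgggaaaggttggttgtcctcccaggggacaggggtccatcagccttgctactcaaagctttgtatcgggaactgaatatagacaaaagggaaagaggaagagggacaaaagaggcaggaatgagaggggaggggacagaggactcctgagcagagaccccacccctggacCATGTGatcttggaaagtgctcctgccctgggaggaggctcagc
CEACAM1: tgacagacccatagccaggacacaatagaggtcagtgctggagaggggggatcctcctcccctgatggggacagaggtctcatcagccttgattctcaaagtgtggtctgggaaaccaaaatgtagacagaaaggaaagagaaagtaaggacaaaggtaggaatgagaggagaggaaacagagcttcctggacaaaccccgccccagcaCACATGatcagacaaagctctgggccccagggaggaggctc

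CEACAM6 and CEACAM5 both carried CACGTG, the E-box read by the factors USF1 and USF2, at 45 and 46 bases before the start. The aligned bases were CATGTG in CEACAM7 and CACATG in CEACAM1, each with 5 of 6 bases identical. Over the aligned bases CEACAM5 and CEACAM7 were 84.0% identical, CEACAM6 and CEACAM7 80.2%, and CEACAM5 and CEACAM6 78.1%. CEACAM1 was the least alike, at 70.5% to 75.8%. Searched on both strands, CACGTG was held by 6.35% of the 35116 promoters of the same length in the RefSeq table and by 0 of the 10 promoters listed for 9 other genes of the family. The other motifs searched were CACCTG (Snail family E-box), TGANTCA (AP-1), GGGCGG (SP1) and GAAANNGAA (IRF), none of which overlapped CACGTG or one another in the 4 members. CACCTG was found in CEACAM5, at 74 bases before the start (17.5% of all promoters held it). GGGCGG was found in CEACAM6 and, on the other strand, in CEACAM1 (42.6% of all), GAAANNGAA in CEACAM6 and CEACAM1 (6.88% of all), and TGANTCA in 0 of the 4 (6.57% of all). The 4 windows held 1 to 5 CpG dinucleotides against a median of 11 over all promoters, of which 38.1% held 5 or fewer. These matches describe letters in the sequence and not bound sites.

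The counts on genes summed to 9116032 to 23570026 in each library. In 11 of the 36 libraries, 11.8% to 24.6% of the counts were mitochondrial, against 5.61% to 7.75% in the other 25. These 11 comprised 6 control and 5 IL-1β libraries. Of them, 8 were of replicate B and 8 were withdrawal libraries, and values without them are given below for several results. The epithelial label held for keratin 8 and keratin 18 (KRT8 at 1766 to 4812 CPM in the control libraries, counts being scaled to the effective library size) and for E-cadherin (CDH1 at 185 to 319 CPM). EPCAM, a further epithelial marker, was low at 0.348 to 1.62 CPM in control libraries, and KRT19 had at most 4 counts in any library. Of 8 markers of other cell types found in the tables, MPO and CD3E were at 0 counts in every library, PTPRC, CDH5 and LUM had at most 3, and the summed level of the 8 was 0.797 to 4.35 CPM in control and 1.49 to 3.31 CPM in IL-1β libraries, of which COL1A1 (up to 64 counts) and ELANE (up to 26 counts) made up most.

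Among the 4 members, CEACAM6 was the most abundant transcript in untreated A549 cells. Per kilobase of exon length it averaged 2.70 ± 1.49 CPM (SD, n = 18) in the control libraries, against 0.307 ± 0.132 for CEACAM1, 0.0587 ± 0.0326 for CEACAM5 and 0.0262 ± 0.0310 for CEACAM7. CEACAM6 stood above CEACAM1 in 18 of 18 control libraries and CEACAM1 above CEACAM5 in all 18 as well, while the levels of CEACAM5 and CEACAM7 overlapped. Of the counts on the 4 genes together, CEACAM6 took 60.6% to 87.5% in the control libraries. In the IL-1β libraries the order of the first pair turned over: CEACAM1 had a median of 0.206 CPM per kilobase (0.0838 to 0.388 over 18 libraries) and CEACAM6 one of 0.0647 (0 to 0.901), and CEACAM6 exceeded CEACAM1 in 1 of 18, a library of withdrawal day 30.

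CEACAM6 was lost almost entirely within 6 days of IL-1β and was still lower 30 days after IL-1β was removed. At exposure day 6 the control libraries A, B and C had 12.3, 11.3 and 11.0 CPM and the IL-1β libraries 0.0689, 0.365 and 0.292 CPM, the latter from 1, 5 and 6 counts. The groups were far apart, with a mean of 11.5 ± 0.655 CPM (SD, n = 3) in control and 0.242 ± 0.154 in IL-1β and a log2 fold change of -5.52 (SE 0.79), or 47.7-fold between the means. A level this low in RNA from whole cultures can come from fewer expressing cells or from less RNA per cell, and these cannot be told apart here. CEACAM6 and CEACAM1 were the 2 members with enough counts to enter edgeR's quasi-likelihood fit, from which the log2 fold changes and standard errors come.

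At exposure days 15 and 21 CEACAM6 was at the limit of counting in the treated cells. At day 15 the IL-1β libraries A, B and C held 3, 2 and 0 counts (0.150, 0.116 and 0 CPM), while the controls had 2.89, 2.16 and 16.2 CPM. The control mean of 7.09 ± 7.90 CPM (SD, n = 3) thus rested on replicate C. With a floor of 3 counts in each library, CEACAM6 was at least 33.5-fold lower, and at least 15.6-fold lower without replicate C. At day 21 the IL-1β libraries held 1, 0 and 0 counts (0.0542, 0 and 0 CPM) and the controls 4.67, 4.52 and 6.56 CPM, so that no IL-1β library came near a control library. CEACAM6 was at least 30.9-fold lower at day 21, and this bound was 23.7 to 39.3 when 1 replicate was omitted. The floor of 3 counts amounted to 0.119 to 0.386 CPM over the 36 libraries. It was a fixed limit and not a confidence limit, and IL-1β library A of day 15 itself held 3 counts. Bounds from it thus cover counting error only in part and leave out the spread between libraries.

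**Figure D1:**
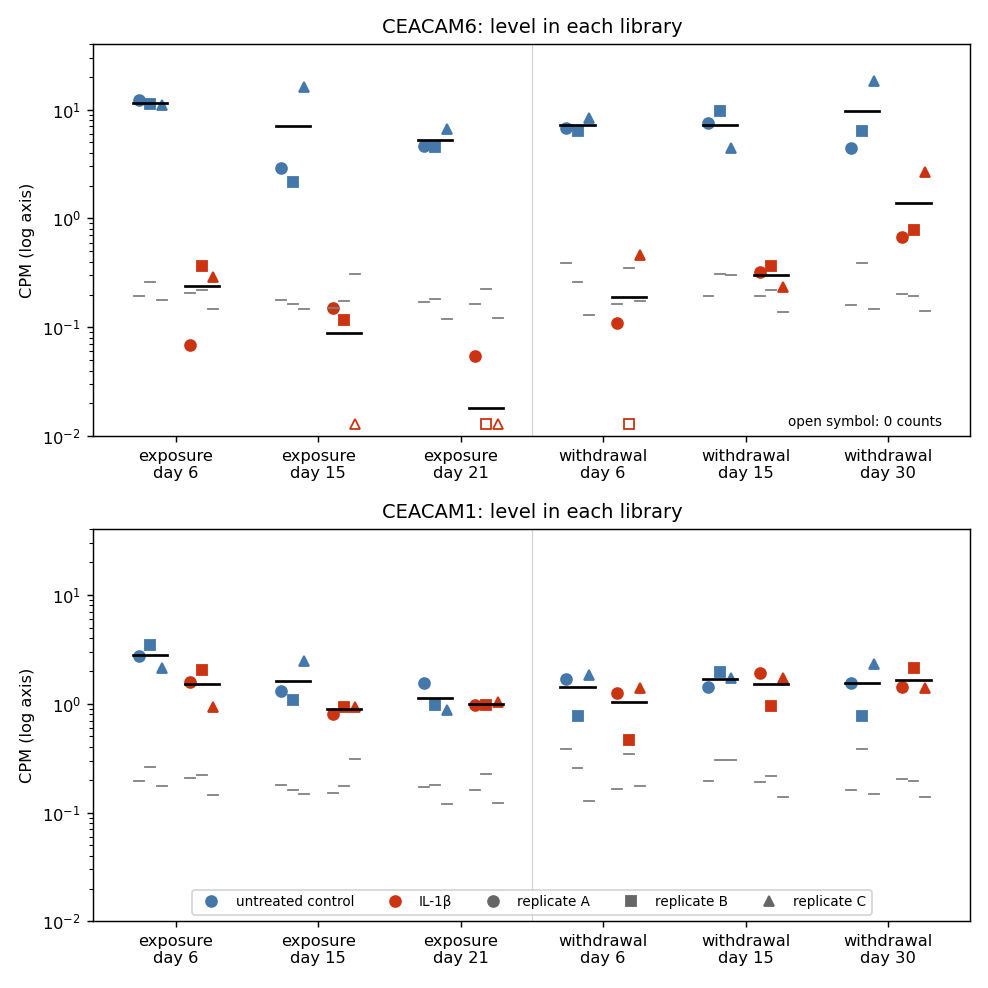
Level of CEACAM6 (upper panel) and CEACAM1 (lower panel) in each of the 36 libraries, in CPM on a log axis, by time point. Blue symbols are untreated and red symbols IL-1β libraries, shapes are replicates, black bars are group means, grey ticks are the level of 3 counts in each library, and open symbols at the lower edge are libraries with 0 counts. The CEACAM6 groups do not overlap at any of the 6 time points, and the CEACAM1 groups overlap at 4 of them. The share of all genes whose groups do not overlap was not computed, so this describes these libraries alone.

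After withdrawal the level of CEACAM6 came back in part and late. At withdrawal day 6 libraries A, B and C of the formerly exposed cells had 0.109, 0 and 0.463 CPM (2, 0 and 8 counts), against 6.70, 6.38 and 8.41 CPM in the controls. The log2 fold change was -4.98 (SE 0.81), and it was -4.85 without the high mitochondrial libraries, which left 1 control library. Without replicate C, where both remaining formerly exposed libraries were at the floor, CEACAM6 was at least 25.6-fold lower. Replicates A and B were thus within the range of the exposed libraries, and replicate C was above it. At withdrawal day 15 each formerly exposed library held 5 counts (0.320, 0.363 and 0.233 CPM) and the controls had 7.52, 9.78 and 4.46 CPM, with a log2 fold change of -4.57 (SE 0.76). Without the high mitochondrial libraries, which again left 1 control library, the log2 fold change was -4.76.

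At withdrawal day 30 all 3 formerly exposed libraries exceeded every earlier treated library, and none reached its lowest control. They had 0.678, 0.779 and 2.66 CPM (10, 12 and 57 counts) in replicates A, B and C, while the controls had 4.40, 6.30 and 18.2 CPM. Replicate C was the highest in both arms. Taken by replicate letter, the formerly exposed library stood at 15.4%, 12.4% and 14.6% of its control. The means were 1.37 ± 1.12 CPM (SD, n = 3) and 9.64 ± 7.49 CPM, or 14.2% of control, where the same ratio was 2.10% at exposure day 6, 2.66% at withdrawal day 6 and 4.21% at withdrawal day 15. The log2 fold change of -2.77 (SE 0.64) changed little without replicate C (-2.87) or without the high mitochondrial libraries (-2.67).

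**Figure D2:**
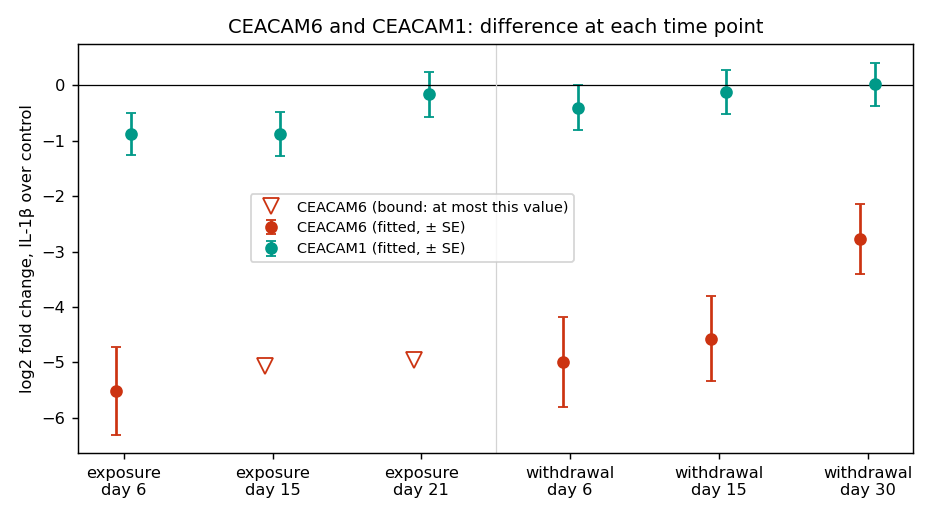
Log2 fold change of IL-1β over untreated control for CEACAM6 (red) and CEACAM1 (green) at the 6 time points, with bars of 1 standard error; open triangles are bounds where every IL-1β library was at or under 3 counts, so that the value lies at or under the triangle. CEACAM6 stays between -5.52 and -4.57 where it could be fitted up to withdrawal day 15 and is at -2.77 at day 30, while CEACAM1 lies between -0.88 and 0.02.

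CEACAM5 and CEACAM7, the other GPI-anchored members, were scarcely transcribed in these cells in either condition. CEACAM5 had 0 to 8 counts per library in control and 1 to 9 in IL-1β. Summed over the 18 libraries of each kind these made 70 and 66 counts, or 0.247 CPM (95% exact Poisson interval 0.193 to 0.312) and 0.221 CPM (0.171 to 0.281), intervals that cover counting error only. The control and IL-1β libraries overlapped at each of the 6 time points, and 10 of 18 control and 9 of 18 IL-1β libraries held more than 3 counts. At exposure days 15 and 21, where the 6 treated libraries together held 6 counts of CEACAM6, they held 19 of CEACAM5, and the 6 controls held 739 and 31. Counts of CEACAM5 were thus still found where those of CEACAM6 were nearly gone.

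CEACAM7 had 0 counts in 21 of the 36 libraries and at most 5 in any. The sums were 23 counts in control (0.0812 CPM, 95% exact Poisson interval 0.0515 to 0.122) and 9 in IL-1β (0.0301 CPM, 0.0138 to 0.0572). More than 3 counts were reached in 2 control libraries and 1 IL-1β library. No difference at a single time point could be detected at this depth, and at withdrawal day 6 all 6 libraries were at 0. Neither CEACAM5 nor CEACAM7 passed the filter on low counts, so neither entered the fit.

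**Figure D3:**
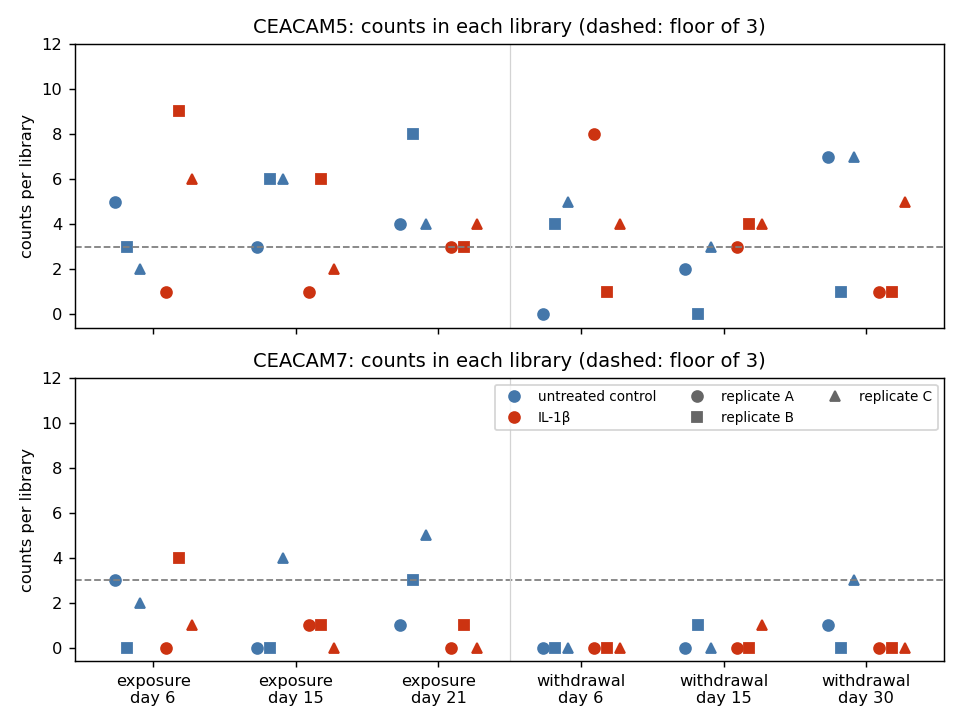
Counts of CEACAM5 (upper panel) and CEACAM7 (lower panel) in each library by time point, with untreated libraries in blue, IL-1β libraries in red, replicates by shape and the floor of 3 counts as a dashed line. CEACAM5 lies at 0 to 8 counts in control and 1 to 9 in IL-1β libraries, and CEACAM7 lies at 0 in 21 libraries.

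CEACAM1, the transmembrane member, was present in every library at 4 to 50 counts and differed far less between the conditions than CEACAM6. At exposure day 6 the controls A, B and C had 2.74, 3.48 and 2.12 CPM and the IL-1β libraries 1.58, 2.04 and 0.924 CPM. At day 15 the controls had 1.30, 1.08 and 2.47 CPM and the IL-1β libraries 0.800, 0.928 and 0.930 CPM. All IL-1β libraries lay under all controls at these 2 time points, by small margins, with log2 fold changes of -0.88 (SE 0.38) and -0.88 (SE 0.40). How many of all genes were separated in this way was not computed. The day 6 value was -0.70 without the high mitochondrial libraries. The day 15 value was -0.45 without replicate C and -1.13 without replicate B. At day 21 the controls had 1.54, 0.964 and 0.875 CPM and the IL-1β libraries 0.976, 0.972 and 1.02 CPM, which overlapped, at a log2 fold change of -0.17 (SE 0.40). From day 6 to day 21 the control mean went from 2.78 ± 0.676 to 1.13 ± 0.359 CPM (SD, n = 3) and the IL-1β mean from 1.52 ± 0.563 to 0.991 ± 0.0293 CPM.

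After withdrawal the CEACAM1 groups overlapped throughout. At withdrawal day 6 the controls had 1.67, 0.776 and 1.84 CPM and the formerly exposed libraries 1.25, 0.463 and 1.39 CPM. Replicate B was the lowest in both arms, and both of these B libraries were of the high mitochondrial kind. The controls had 1.43, 1.94 and 1.72 CPM at day 15 and 1.56, 0.771 and 2.31 CPM at day 30, against 1.92, 0.944 and 1.72 CPM and then 1.42, 2.14 and 1.40 CPM in the formerly exposed cells. The log2 fold changes were -0.41 (SE 0.41), -0.12 (SE 0.39) and 0.02 (SE 0.39) at the 3 withdrawal time points, each no larger than its standard error. The sign varied with the libraries kept. At withdrawal day 15 the value was 0.35 without the high mitochondrial libraries, which left 1 control library. At day 30 it was -0.46 without replicate B and 0.51 without replicate C. At this depth these values show no clear difference in CEACAM1 after withdrawal, and none was tested.

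The level of the members in untreated cells over the length of the culture was not used in choosing them and could be tested. Over the 6 control groups neither CEACAM6 nor CEACAM1 passed (adjusted p = 0.981 for both, edgeR's quasi-likelihood F-test over the control groups with Benjamini-Hochberg adjustment). Among all genes tested 0.00521% passed, which is 1 gene of 19180, with 695 at an unadjusted p under 0.05 and 28 genes passing by the likelihood ratio test of DESeq2. CEACAM1 was among the 695 and CEACAM6 was not. Between the last and the first collection of untreated cells, CEACAM6 differed by -0.24 on the log2 scale (95% interval -1.42 to 0.94) and CEACAM1 by -0.76 (-1.54 to 0.02), with an adjusted p of 1.00 for both by the same quasi-likelihood test, where 0.0104% of all genes passed. Without replicate A the value of CEACAM6 was 0.16 and without replicate C it was -1.14. The spread of CEACAM6 between control replicates was large, with replicate C at 16.2 CPM and replicates A and B at 2.89 and 2.16 CPM at exposure day 15. Without replicate C the adjusted p of CEACAM6 over the control groups was 0.0743, still over the threshold.

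Genes that were not members were tested between IL-1β and control with the quasi-likelihood fit of edgeR. They were called at a fold change over 2 and an adjusted p under 0.05 (Benjamini-Hochberg method). By this rule, of all 19180 genes tested, 1.25% were lower and 1.52% higher at exposure day 6, 2.3% and 1.94% at day 15, and 2.06% and 2.19% at day 21. After withdrawal the shares were 0.725% lower and 1.08% higher at day 6, 0.36% and 0.594% at day 15, and 0.464% and 0.433% at day 30. Counts over short lists are to be read against these shares. The gene lists were chosen with earlier results of these data known. Their counts of calls and adjusted p-values are thus a description of the listed genes and no independent test.

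The other genes of the family were compared where their counts allowed it. Of the 18 others with a row of counts, 5 entered the fit, and at exposure day 21 their log2 fold changes lay between -0.84 and 0.11, with 0 passing in either direction by edgeR's quasi-likelihood test, 0 by DESeq2 and 1 at an unadjusted p under 0.05. CEACAM8, a granulocyte member, reached at most 16 counts in a library and differed by -0.02 (SE 0.65) at day 21, CEACAM19 by 0.04 (SE 0.28) and the pseudogene CEACAM22P by -0.23 (SE 0.39). Of the pregnancy-specific glycoproteins, PSG4 passed as lower at exposure day 6 alone, by a log2 fold change of -1.78 (SE 0.41, adjusted p = 0.00837, quasi-likelihood test). It lost this call without any 1 of the 3 replicates. At exposure days 15 and 21 PSG4 was at -0.91 (SE 0.42) and -0.84 (SE 0.38) without passing. PSG2 passed at no time point, with 0.11 (SE 1.08) at day 21. PSG1, PSG3, PSG5, PSG7, PSG8, PSG9 and CEACAM3 had more than 3 counts in some libraries (at most 13) but did not enter the main fit, so their levels were not compared there. At exposure day 6, 2 of the other family genes were called in place of 1 with no filter on low counts, and likewise without the high mitochondrial libraries. The genes of the family share sequence, and reads that fit several of them may be dropped or ambiguous. Of all 50-base words in the GENCODE transcripts, 4.20% of those of CEACAM6, 2.62% of CEACAM1, 2.23% of CEACAM5 and 0% of CEACAM7 were also found in another CEACAM or PSG gene, so most of each member's sequence was its own at this length.

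Genes on either side of the members on the chromosome differed far less than CEACAM6. In the window from 500 kb before CEACAM7 to 500 kb after CEACAM1 (GRCh37 chr19:41677231-43565386), 35 tested genes were not members. At exposure day 21 their median log2 fold change was 0.01, with 1 gene higher and 1 lower, a share near the 2.19% and 2.06% of all genes, so the calls are not a result about the region. The 7 tested genes that start within 250 kb of the CEACAM6 start lay between -0.37 and 0.47. POU2F2, which encodes a lymphoid octamer-binding factor, was higher at day 21 (log2 fold change 1.63, SE 0.44, adjusted p = 0.0177 by the quasi-likelihood test) and lost the call without any 1 replicate. CYP2S1, a cytochrome P450, was lower at exposure days 6 and 21 and withdrawal day 6, by -1.02 (SE 0.22, adjusted p = 0.00226) at day 21, and its day 21 call was lost without replicate A or C, that of day 6 without replicate B and with total counts only, and that of withdrawal day 6 without replicate A. The calls of exposure day 6 and withdrawal day 6 were also lost without the high mitochondrial libraries. At withdrawal day 15 it was at -0.92 (SE 0.22, adjusted p = 0.0235), and there and at exposure day 15 (SE 0.22, adjusted p = 0.00309) it fell just short of the fold threshold alone. CNFN, a component of the cornified envelope, passed at exposure day 6 alone (-1.44, SE 0.40, adjusted p = 0.0363), and lost the call without any 1 replicate.

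**Figure D4:**
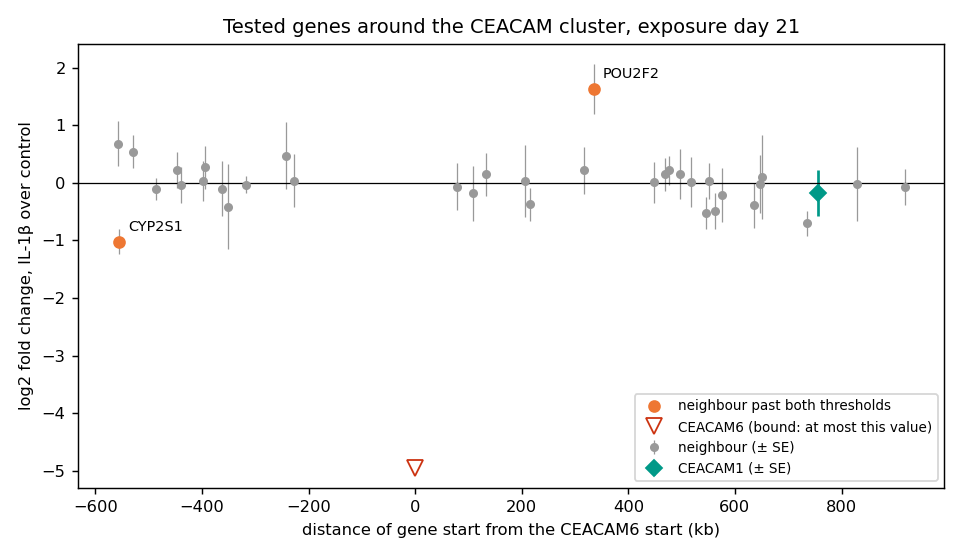
Log2 fold change of IL-1β over control at exposure day 21 for the 35 tested neighbours (grey, with bars of 1 standard error; orange where both thresholds were passed), CEACAM1 (green) and CEACAM6 (open triangle, a bound) against the distance of each gene's start from the CEACAM6 start in kb. The neighbours lie between -1.02 and 1.63 and CEACAM6 at or under -4.95.

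Among factors known to act on promoters of the family or on epithelial genes, 10 of 11 entered the fit. Their part in the CEACAM6 difference was not tested. USF1 differed by 0.21 (SE 0.33) and USF2 by 0.02 (SE 0.11) at exposure day 21 on the log2 scale, and neither passed at any of the 6 time points, nor did SP1, SP3, IRF1, SOX9 or SMAD3. At exposure day 6 IRF1 (0.91, SE 0.20, adjusted p = 0.00497, quasi-likelihood test) and SOX9 (-0.90, SE 0.17, adjusted p = 0.00108) fell short of the fold threshold alone. HNF4A, a hepatic and intestinal nuclear receptor, fell at all 6 time points, from 5.18 to 28.0 CPM in control libraries and 0.705 to 6.47 CPM in IL-1β libraries. Its log2 fold change was -3.58 (SE 0.47, adjusted p = 4.78e-06, quasi-likelihood test) at day 21 and -2.14 (SE 0.42, adjusted p = 0.00605) at withdrawal day 30. SNAI2, a Snail family repressor also called SLUG, rose at exposure days 15 and 21 and withdrawal day 6, by 3.23 (SE 0.49, adjusted p = 3.3e-05) at day 21, and was at 1.64 (SE 0.49, adjusted p = 0.0505) at exposure day 6, 1.23 (SE 0.46, adjusted p = 0.313) at withdrawal day 15 and 0.80 (SE 0.49, adjusted p = 0.732) at withdrawal day 30. TFAP2A passed at exposure day 6 alone, at -1.04 (SE 0.19, adjusted p = 0.000784), and kept this call under 4 of 9 alternatives. Without replicate A, HNF4A kept its calls at exposure days 15 and 21 and lost the other 4, of which that of withdrawal day 15 was also lost without replicate B and with total counts only, and SNAI2 lost that of withdrawal day 6. CDX2 had at most 1 count in any library.

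**Figure D5:**
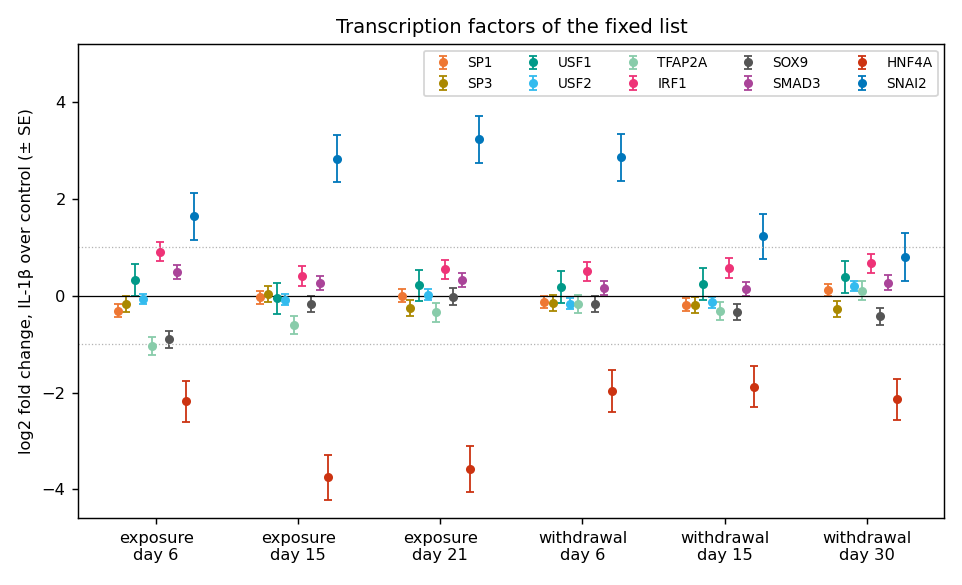
Log2 fold change of IL-1β over control (bars of 1 standard error) at the 6 time points for the 10 tested transcription factors of the list, with dotted lines at a fold change of 2. HNF4A lies at -3.58 and SNAI2 at 3.23 at exposure day 21, while USF1, USF2, SP1 and SP3 stay near 0.

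Among the epithelial markers, 3 of 4 tested were lower together with CEACAM6 during exposure. The summed level of the 5 markers was 2897 to 7615 CPM in control and 898 to 5136 CPM in IL-1β libraries. At exposure day 21 the log2 fold change was -2.24 (SE 0.30, adjusted p = 7.15e-06, quasi-likelihood test) for CDH1, -1.89 (SE 0.31, adjusted p = 0.000124) for KRT8 and -1.89 (SE 0.34, adjusted p = 0.00034) for KRT18, and EPCAM was at -1.13 (SE 0.51, adjusted p = 0.287). At withdrawal day 6 CDH1 (-1.29, SE 0.30, adjusted p = 0.0105, quasi-likelihood test) and KRT18 (-1.21, SE 0.33, adjusted p = 0.044) passed, while KRT8 and EPCAM did not. Both calls were lost without replicate A or B and with total counts only. Later the 4 markers stayed under control, at -1.16 to -0.70 at withdrawal day 15 and -1.04 to -0.52 at day 30, where CEACAM6 was at -4.57 and -2.77. None of the 4 passed at these times by edgeR's quasi-likelihood test or by DESeq2, and 4 and 2 of them were at an unadjusted p under 0.05. Without replicate A only CDH1 passed at day 21, and the CDH1 call of exposure day 6 was kept under 4 of 9 alternatives. COL1A1, a fibroblast collagen that A549 libraries held at 0.797 to 3.44 CPM, was higher at exposure days 6 and 21 (1.24, SE 0.29, adjusted p = 0.00574 at day 21, lost without replicate A), and its day 6 call was kept under 3 of 9 alternatives. The part of these markers in the CEACAM6 difference was not tested.

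No gene of the machinery that builds GPI anchors passed. Of 26 tested genes of GPI anchor assembly 0 passed at any of the 6 time points by edgeR's quasi-likelihood test or by DESeq2, with 0 to 2 at an unadjusted p under 0.05 at each, and their log2 fold changes at exposure day 21 lay between -0.46 and 0.21. Of 17 other GPI-anchored proteins tested, 3 were higher and 0 lower at day 21, beside 2.19% and 2.06% of all genes. NT5E, the ectonucleotidase CD73, was at 7.41 to 28.0 CPM in control and 11.7 to 161 CPM in IL-1β libraries, with a log2 fold change of 2.88 (SE 0.39, adjusted p = 5.8e-06, quasi-likelihood test) at day 21, and passed at all time points but withdrawal day 30. PLAUR, the urokinase receptor, was at 1.16 (SE 0.21, adjusted p = 0.000432) and SEMA7A, a GPI-anchored semaphorin, at 1.73 (SE 0.41, adjusted p = 0.00693) at day 21. CD59 (0.72, SE 0.12, adjusted p = 0.000162, same test) and EFNA5 (-0.58, SE 0.17, adjusted p = 0.0337) fell short of the fold threshold alone at day 21. CD59 also did so at exposure days 6 and 15 and withdrawal days 6 and 15. Without replicate A only NT5E passed at day 21, and SEMA7A lost its call without replicate B as well. The calls of NT5E at withdrawal days 6 and 15 were lost without replicate A or B. EFNA1, an ephrin, passed as higher at exposure day 6 alone (1.40, SE 0.40, adjusted p = 0.0394, quasi-likelihood test). It lost the call without replicate A or B or with total counts only. ALPP, placental alkaline phosphatase, passed as lower at exposure day 15 alone (-1.55, SE 0.43, adjusted p = 0.0237, quasi-likelihood test). It lost the call without replicate A or C or with total counts only. At exposure days 6 and 21 ALPP was at -1.26 (SE 0.42) and -1.11 (SE 0.41) without passing (adjusted p = 0.106 and 0.129, same test). Whether the days differed was not tested.

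The 17 tested binding partners and effectors of CEACAMs include SRC, LYN, the SHP phosphatases (PTPN6, PTPN11), calmodulins, filamin A and β-catenin. Of the 17, 1 was called higher and 0 lower at exposure day 21, beside 2.19% and 2.06% of all genes. LYN fell short of the fold threshold alone at days 15 and 21 (0.78 and 0.73, SE 0.21, adjusted p = 0.0216 and 0.0328, quasi-likelihood test). EGFR did so at exposure day 6 (0.57, SE 0.16, adjusted p = 0.0387, same test). ITGB3, the β3 subunit of the vitronectin receptor, rose at all 6 time points, from 4.03 to 9.88 CPM in control to 12.5 to 42.7 CPM in IL-1β libraries. Its log2 fold change was 2.16 (SE 0.27, adjusted p = 1.64e-06, quasi-likelihood test) at day 21 and 1.97 (SE 0.27, adjusted p = 8.33e-05) at withdrawal day 30, and its calls at exposure day 6 and withdrawal days 15 and 30 were lost without replicate A or B. TLR4, the endotoxin receptor, was higher at the 3 withdrawal time points (2.58, SE 0.63, adjusted p = 0.0325 at day 30), from at most 38 counts in a library, and lost these calls without any 1 replicate and without the high mitochondrial libraries. During exposure it was at 1.15 (SE 0.72), 1.88 (SE 0.72) and 1.63 (SE 0.58) at days 6, 15 and 21 without passing, and whether exposure and withdrawal differed was not tested.

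The genes whose pattern over the 36 libraries was most like that of CEACAM6 (Pearson r of log2 CPM) were HHEX (r = 0.956), GPX2 (0.956), INSL4 (0.949), VAV3 (0.946) and PLCH1 (0.944), on 5 different chromosomes. All 5 were lower with IL-1β, and the libraries share treatment, time and depth, so these r describe the pattern and carry no test. GPX2, a gastrointestinal glutathione peroxidase, had the nearest sizes, with log2 fold changes of -4.28 (SE 0.53), -4.27 (SE 0.55) and -4.80 (SE 0.58) at exposure days 6, 15 and 21 and -2.15 (SE 0.48) at withdrawal day 30. VAV3 went from -3.98 (SE 0.31) at day 21 to -1.02 (SE 0.27) at withdrawal day 30. INSL4, an insulin-like peptide of the placenta, went from -3.05 (SE 0.44) to -1.69 (SE 0.37), HHEX, a homeobox factor, from -1.70 (SE 0.21) to -0.84 (SE 0.20), and PLCH1, a phospholipase C, from -1.64 (SE 0.19) to -0.58 (SE 0.18). The difference was nearer 0 in all 5 at the last collection than at day 21.

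The pattern of CEACAM1 had looser matches, namely EPHX1 (r = 0.815), ADORA1 (0.814), DUSP1 (0.805), MAP2K5 (0.805) and ERGIC1 (0.799). EPHX1, the microsomal epoxide hydrolase, was at -0.72 (SE 0.20), -0.77 (SE 0.20) and -0.43 (SE 0.20) at exposure days 6, 15 and 21 and at 0.11 (SE 0.20) at withdrawal day 30, close to the values of CEACAM1. CEACAM1 and CEACAM6 themselves had r = 0.514 over the 36 libraries and 0.634 over the 18 control libraries, where IL-1β does not enter.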

How the data were processed

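RNA was taken from A549 cells of 12 groups with 3 libraries each. Libraries were made with the KAPA Stranded mRNA-Seq kit, and single-end HiSeq reads were aligned by the authors to GRCh37 and counted per Ensembl gene. The submitters' processing notes name bcl2fastq 2.17, TopHat2 2.0.14, Bowtie2 2.2.5 and HTSeq 0.6.1. The authors deposited raw counts, with no normalization. The strand setting of the counting and the annotation release are not given in the sources used here, so overlapping and antisense genes cannot be told apart with certainty. Reads on no gene made up 8.48% to 18.6% and ambiguous reads 2.62% to 4.18% of all reads counted, and both stayed out of library sizes and tests.

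Of the 63677 genes, 55665 had a symbol in GENCODE v44lift37 under their Ensembl identifier. In R 4.3.3, filterByExpr of edgeR 4.0.16 kept 19180 genes, counts were scaled by TMM, and 1 quasi-likelihood model held all 36 libraries and 12 group terms (24 residual degrees of freedom). P-values were adjusted over the 19180 genes by the Benjamini-Hochberg method, and a call needed a fold change over 2 and an adjusted p under 0.05. CPM used the TMM effective library sizes, and likeness used log2 CPM with a prior count of 2. A group was at the floor when each of its libraries had 3 or fewer counts. Promoters came from RefSeq (GRCh38.p14), with all 4 members matched, and were aligned with Biopython 1.88. Tables were computed with Python 3.11.15, numpy 2.4.6, pandas 2.3.3 and scipy 1.17.1, and drawn with matplotlib 3.10.9.

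The members and the gene lists were chosen with earlier results of these data known. Named were the 4 members, the genes of each list called at 1 or more time points (at most 8 by their day 21 difference), the other family genes with more than 3 counts in a library, the 5 genes most like each tested member, and the neighbours called at 1 or more time points. CEACAM20, PECAM1, CD24 and PIGW were not matched in the tables. Same-lettered IL-1β and control libraries deviated together from their group means in log2 CPM at exposure day 21 and withdrawal day 30, where each of the 3 pairs had a correlation over 0.1 (0.197 to 0.259 and 0.310 to 0.464). The labels do not say what a shared letter means. Alternatives were DESeq2 1.42.0, its size factors, total counts, no filter on low counts, a replicate block, each replicate left out, the high mitochondrial libraries left out, a separate fit of each time point and a prior count of 2.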

Additional observations from a re-analysis of the deposited data

How the results depend on the processing

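The log2 fold changes of CEACAM6 at exposure day 6 and withdrawal day 30 moved by less than the spread between replicates under every alternative run. Those of CEACAM1 at exposure days 6 and 21 and withdrawal day 30 did so too. This spread was wide (SD 0.80 for CEACAM1 at withdrawal day 30), and the sign of CEACAM1 was not settled. It was at -0.46 without replicate B and 0.51 without replicate C at withdrawal day 30, and at 0.13 without replicate A at day 21. CEACAM6 at withdrawal day 6 moved by more without replicate C, where only the bound above is given. Under the replicate block CEACAM6 was at -5.68 at exposure day 6 and -2.75 at withdrawal day 30 and CEACAM1 at -0.17 at day 21. The bound on CEACAM6 at exposure day 21 ranged from 23.7-fold to 39.3-fold with each replicate left out. At day 21 the number of genes called changed in 5 groups of genes. Among CEACAM partners and effectors 2 passed in place of 1 under the replicate block and without the high mitochondrial libraries, and 1 to 2 with each replicate left out. With each replicate left out, 1 to 3 of the other GPI-anchored proteins passed and 0 to 1 of the neighbours, and without replicate A 1 in place of 3 epithelial markers and 0 in place of 1 marker of other cell types. The block changed no other count at day 21 by more than 1.5 times. Of 18 same-lettered pairs 14 had a correlation of deviations over 0.1 (range -0.34 to 0.72), and every pair passed at 2 of the 6 time points. None of the 5 genes most like CEACAM6 or CEACAM1 stayed among the first 5 when 12 group means replaced the 36 libraries. Words of 36 bases shared by CEACAM6 with other family genes made up 9.41%, and words of 75 bases 0.139%. Depth limited CEACAM5 and CEACAM7, whose counts allow no statement on single time points, and sets the bounds on CEACAM6.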
